A study of Homo sapiens with 30 samples.

Results

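Liver metastases were set against primary tumours in 2 subclones of one breast cancer line, and the comparison described here is the difference between their liver responses. A liver response is the log2 change from tumour to liver metastasis, and the difference is the response of subclone 13 minus that of subclone 2. The rule used 12 of the 24 samples of the series, which were sequenced as 16 of its 30 libraries: a tumour sample and a liver sample of each subclone in each of 3 mice, numbered 1 to 3. All 12 samples were cells of MDA-MB-231, a human triple-negative breast cancer line, that carried LeGO barcodes (lentiviral vectors that mark the descendants of a cell) and had been grown in NOD-SCID-IL2Rγc−/− (NSG) mice. Each subclone was 1 clone of the line, both were sorted from the same 3 animals per the labels, and the groups differed in subclone and organ. No drug is named in the labels, and mouse age and time of growth are not given in the sources used here. NSG mice lack T, B and NK cells and keep myeloid cells, so the metastases grew without adaptive immunity. RNA of the sorted cells was counted per gene, and 6 lung metastasis samples of the same mice entered the fit to share its estimate of the spread. Of 17418 genes tested, 1 had a liver response that differed between the subclones at an adjusted p under 0.05: ACTG2, which encodes smooth muscle gamma-actin.

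The liver is a common site of breast cancer spread. Tumour cells lodge there in sinusoids, next to hepatocytes, Kupffer cells, stellate cells and a fenestrated endothelium, and they receive portal blood rich in nutrients. Clones of one line share most mutations but can keep heritable differences in transcription, so the same organ may act on them in different ways. A gene can change in one clone past a threshold and miss it in the other by a small margin, and only a test of the difference between the responses tells these cases from a true difference.

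Depth was 13.7 to 72.0 M counts per sample (1 M is 1e+06), after summing the 3 libraries that each organ of mouse 1 had for subclone 13. Mouse 1 stood apart: on the first principal component of the 12 samples, which held 46.9% of the variance, its 4 samples scored −82.1 to −11.9 and the 8 of mice 2 and 3 scored 14.6 to 35.7. Each mouse was sequenced in a run of its own, except that the libraries of subclone 13 of mouse 1 came from runs 1, 2 and 3. Outside those libraries run and mouse cannot be told apart, and mouse was a term of the fit. In mouse 1 the subclone 13 liver sample summed 6.54, 51.4 and 9.54 M counts from runs 1, 2 and 3. The subclone 13 tumour sample summed 17.9, 20.1 and 12.4 M, and both subclone 2 samples of mouse 1 were from run 1. The mouse term does not remove this difference in run mix. On the first component subclone 2 of mouse 1 scored −72.8 and −82.1, and subclone 13 scored −11.9 and −38.5. The 11 identity genes of MDA-MB-231 summed to 4900 to 9890 CPM (counts scaled to the depth of the sample), led by VIM at 2830 to 7470 CPM. The sum mixes genes high in the line with genes low in it. Of the low ones ESR1 was at 0 to 1.79 CPM, PGR at 0 to 0.289 CPM and CDH1 at 0 to 3.22 CPM. Of 13 hepatocyte markers, SERPINA1 carried the sum, which was 135 to 248 CPM in subclone 13 and 48.0 to 84.7 CPM in subclone 2 over both organs. Albumin (ALB), the most abundant hepatocyte product, was at 0 to 0.303 CPM in all 12 samples. CPS1, another of the hepatocyte markers, was at 1.20 to 5.07 CPM in tumours and 4.01 to 13.2 CPM in liver metastases. It was higher in liver in every mouse and subclone, while APOA1 was lower in liver in all 3 mice of subclone 13. The 12 stromal and muscle markers, led by COL1A2, summed to 185 to 298 CPM in tumours and 74.5 to 216 CPM in liver metastases of subclone 2, and to 236 to 339 and 124 to 246 CPM in those of subclone 13. The 9 myeloid and lymphoid markers summed to 3.85 to 10.5 CPM in tumours of subclone 2 and 8.13 to 23.1 in its liver metastases. In subclone 13 they summed to 12.6 to 16.1 and 12.8 to 21.4 CPM. Of them CD14 was at 0 to 1.45 CPM in tumours and 1.81 to 15.5 CPM in liver metastases. CSF1R was lower in liver in mice 2 and 3. The 10 endothelial markers summed to 78.0 to 114 and 111 to 199 CPM in subclone 2. In subclone 13 they summed to 98.6 to 122 and 109 to 153 CPM. EPCAM, usually low in this line, was at 13.7 to 61.6 CPM.

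ACTG2 (ENSG00000163017, GRCh38 chr2:73892314-73919865, plus strand, protein coding) makes the actin of enteric smooth muscle. In the order of mice 1, 2 and 3, subclone 2 had 3.22, 2.23 and 3.32 CPM in tumours and 0.192, 0 and 0.260 CPM in liver metastases, on the TMM scale used for all values by sample below. Subclone 13 had 15.3, 7.68 and 7.84 CPM in tumours and 20.4, 27.6 and 29.3 CPM in liver metastases. Each liver sample of subclone 2 was below each tumour sample of that subclone, and each liver sample of subclone 13 was above each of its tumour samples, so the groups did not overlap in either subclone. Here and for the genes below, a lack of overlap only describes values of genes picked for their difference. The share of all genes tested without overlap was not computed. ACTG2 fell by 4.50 on the log2 scale in the liver of subclone 2 (edgeR adjusted p = 0.000591), and in subclone 13 its change was 1.40 (edgeR adjusted p = 0.187). The difference between the responses was 5.90 ± 0.80 (SE, 3 mice; 95% interval 4.23 to 7.58, edgeR adjusted p = 0.00861). All 3 mice had the same direction, with 2.83, 4.23 and 4.17 on a log2 scale with 0.5 CPM added, which shrinks changes of a low gene. ACTG2 was the 1 gene called in this comparison, which is 0.00574% of those tested.

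The counts behind ACTG2 were small in subclone 2. Its 3 tumours had 52, 35 and 144 counts and its 3 liver samples 3, 0 and 15, against 708, 150 and 197 counts in tumours and 1205, 457 and 446 in liver metastases of subclone 13. The 0 came from the deepest sample, with 72.0 M counts, which allows a level of up to 0.0417 CPM (3 counts) as far as counting error goes. That sample had 21778 genes detected, fewer than the 25390 of the subclone 2 tumour of mouse 2 at 13.7 M counts. The allowed level rests on depth alone, and how many distinct molecules were sampled was not tested. The higher level in subclone 13 was already visible in tumours, by 1.82 (edgeR adjusted p = 0.140), and in liver metastases it reached 7.73 (edgeR adjusted p = 4.36e-06). Lung metastases had 1.45, 0.354 and 1.72 CPM in subclone 2 and 15.2, 12.8 and 16.2 CPM in subclone 13. The call was lost without mouse 2 (4.83, edgeR adjusted p = 0.0539), without mouse 3 (7.13, 0.139), without the subclone 13 liver sample of mouse 2 (5.46, 0.0533), without the lung samples (5.88, 0.109) and with no mouse term (5.73, 0.331). It held with mouse 1 left out (6.49, edgeR adjusted p = 0.0363), and with the mouse 1 library of subclone 13 that shared a run with subclone 2 (6.03, 0.00509).

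**Figure D1:**
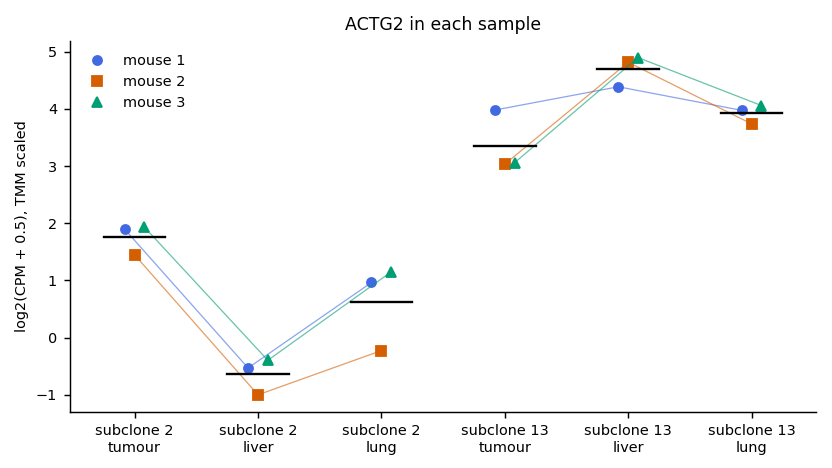
Level of ACTG2 in each sample, as log2 of TMM-scaled CPM plus 0.5, by subclone and organ. Points are mice 1 to 3, lines join samples of one mouse and subclone, and bars are means of 3 mice. Liver points of subclone 2 lie below its tumour points (0 to 0.260 against 2.23 to 3.32 CPM) and those of subclone 13 above them (20.4 to 29.3 against 7.68 to 15.3 CPM).

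The promoter of ACTG2 is shown because smooth muscle actin genes are textbook targets of serum response factor, which binds CArG boxes. The sequence is from RefSeq (GRCh38.p14), chr2:73892758-73893007, plus strand, the 250 bases before the start, with 2 CArG matches in capitals, 110 and 73 bases before the start.
ACTG2: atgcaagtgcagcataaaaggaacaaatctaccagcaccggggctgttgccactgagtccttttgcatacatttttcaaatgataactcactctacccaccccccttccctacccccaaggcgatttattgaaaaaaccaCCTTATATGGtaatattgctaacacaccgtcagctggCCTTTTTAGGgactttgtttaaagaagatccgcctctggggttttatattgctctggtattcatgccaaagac
This motif was searched after the ACTG2 call was known, on both strands. Of 11784 tested genes with a RefSeq promoter, 181 (1.54%) held a match in the same window before any listed start. A match describes the letters only and does not show that the factor binds there.

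The main test called no other contractile or actin gene. Of 16 such genes, listed after the ACTG2 call was seen, 0 were called by edgeR and 1 had an unadjusted p under 0.05. Of the 16, 11 had a fitted difference above 0 and 5 below, and their median difference was 0.23 beside −0.03 over all genes tested. CNN1 (calponin) had the highest value, 3.73 ± 2.30 (SE), with a change of −5.89 in subclone 2 and levels of 0 to 1.22 CPM in the 12 samples. MYH11, the smooth muscle myosin heavy chain, differed by 0.96 ± 0.69. ACTA2, the smooth muscle alpha-actin, differed by −0.53 ± 0.80 (SE). TAGLN (transgelin) differed by 0.66 ± 0.43, MYL9 (a myosin light chain) by 0.31 ± 0.33, and the tropomyosin gene TPM1 by 0.23 ± 0.27. The cytoplasmic actins ACTB and ACTG1 differed by 0.28 ± 0.33 and 0.14 ± 0.34, and SRF, which encodes serum response factor, by −0.26 ± 0.27. MYLK, the myosin light chain kinase, was the gene of unadjusted p under 0.05, in the other direction (−1.72 ± 0.58, edgeR adjusted p = 0.904). Its level in liver metastases of subclone 2 was 84.9, 414 and 90.8 CPM, so mouse 2 stood apart. Actin genes have near-identical coding sequence, and how reads shared between them were assigned is not given in the sources used here.

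Genes called in the liver of either subclone mostly had the same fitted direction in both. In subclone 13, 318 genes were called between liver and tumour (1.83% of those tested), 75 higher and 243 lower. In subclone 2, 292 were called (1.68%), 86 higher and 206 lower. Both responses called 129 genes, which is 40.6% of the subclone 13 calls and 44.2% of the subclone 2 calls: 32 higher in both, 97 lower in both and 0 in opposite directions. Another 189 genes were called in subclone 13 alone, and the test of the difference called 0 of these, with 74 at an unadjusted p under 0.05. Of 163 genes called in subclone 2 alone, it called 1, ACTG2, and 74 had an unadjusted p under 0.05. Of the 481 genes called in either subclone, 445 had the same fitted direction in both. The share over all genes tested was not computed, so this count has no background beside it. Pearson's r between the responses was 0.589 across 11454 genes with a mean of at least 5 CPM in a group. Across all genes tested it was 0.32. Both are descriptions, since genes are not independent replicates and each response shares its fit with the other.

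More genes were called for levels than for the difference in response. Between the subclones 88 genes were called in tumours (0.505%), 60 of them higher in subclone 13, and 262 in liver metastases (1.50%), 170 of them higher in subclone 13. That more genes were called in the liver is a pair of counts and not a test of the difference, which is the comparison above with its 1 call. At an unadjusted p under 0.05 the difference in response held 635 genes (3.65%, against the 5% such a threshold passes by itself), 300 higher (1.72%) and 335 lower (1.92%) in subclone 13. The 95% interval of the difference lay within 1 log2 unit of 0 for 6946 of the 11454 genes of at least 5 CPM (60.6%). For the rest the interval reached past 1 log2 unit, so a missed call there does not show that the subclones changed alike.

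**Figure D2:**
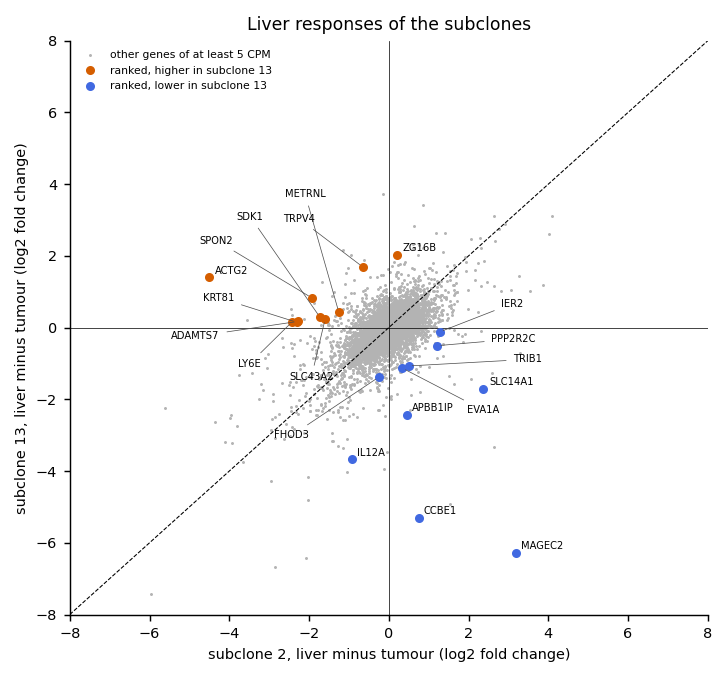
Liver response of subclone 13 (vertical) against that of subclone 2 (horizontal), each as the fitted log2 fold change of liver metastasis against tumour, for 11454 genes of at least 5 CPM in a group. The dashed line marks equal responses, and coloured points are the 20 genes ranked first for the difference, of which ACTG2 (−4.50 in subclone 2 and 1.40 in subclone 13) is the one called.

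The 10 genes ranked first in each direction had a symbol, at least 5 CPM in a group, the same direction in all 3 mice and the smallest unadjusted p. Apart from ACTG2 none passed the adjusted threshold, so the other 19 are given as values. DESeq2, the second tool, called 26 genes (20 higher, 6 lower), and 13 of the 20 ranked genes were among them. Of the 10 ranked higher in subclone 13, 8 had fallen in the liver of subclone 2 by that subclone's own test and 2 had risen in that of subclone 13. Of the 10 ranked lower, 6 had fallen in subclone 13, 2 had risen in subclone 2 and 2 had passed neither test. These patterns describe genes picked for their difference.

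After ACTG2, ZG16B had the smallest p among the genes ranked higher. ZG16B encodes a lectin-like secretory protein. In subclone 2 it was at 13.4, 18.1 and 19.2 CPM in tumours and 18.9, 19.3 and 18.5 CPM in liver metastases, and in subclone 13 at 6.58, 7.99 and 10.6 CPM in tumours and 21.4, 44.0 and 40.2 CPM in liver metastases. Subclone 13 started below subclone 2 and ended above it in every mouse, with no overlap between its organs. ZG16B rose by 2.03 ± 0.23 in subclone 13 (edgeR adjusted p = 5.45e-05) and its change in subclone 2 was 0.20 ± 0.22. The difference was 1.83 ± 0.31 (edgeR adjusted p = 0.104), DESeq2 called it (1.86, adjusted p = 0.000243), and edgeR called it with mouse 1 left out (2.15, adjusted p = 0.0363).

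AGR2, a chaperone-like protein of the secretory pathway, and TFF3, a trefoil peptide of mucus, were outside the ranking and chosen after values were seen. DESeq2 called both (adjusted p = 0.041 and 0.0329). It gave smaller p to other unranked genes, such as LGR6 (6.64, adjusted p = 0.00163), MCF2L (4.84, 0.00368) and FRMD3 (−6.50, 0.0184). The choice of AGR2 and TFF3 therefore shows no theme of the DESeq2 calls. AGR2 was at 53.4, 25.1 and 40.4 CPM in tumours and 76.3, 168 and 104 CPM in liver metastases of subclone 13, against 109, 131 and 127 and then 66.4, 123 and 139 CPM in subclone 2. TFF3 went from 1.86, 0.871 and 0.915 CPM to 8.37, 21.7 and 15.2 CPM in subclone 13, and was at 6.63, 9.43 and 13.8 CPM in tumours and 8.66, 8.98 and 46.0 CPM in liver metastases of subclone 2. Both were lower in tumours of subclone 13 than in those of subclone 2 in every mouse, as ZG16B was. Their differences were 1.65 ± 0.42 and 2.54 ± 0.67 (edgeR adjusted p = 0.536 and 0.636), and both rose within subclone 13, by 1.46 (edgeR adjusted p = 0.0139) and 3.41 (0.000895).

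METRNL, SPON2 and ADAMTS7 fell in the liver of subclone 2. METRNL (meteorin-like, a secreted cytokine) was at 22.5, 24.1 and 33.0 CPM in tumours and 10.1, 9.98 and 13.3 CPM in liver metastases of subclone 2, against 18.2, 14.8 and 19.4 and then 33.3, 15.7 and 21.4 CPM in subclone 13. It fell by 1.25 in subclone 2 (edgeR adjusted p = 0.00569), changed by 0.43 in subclone 13 (0.535), and the difference was 1.68 ± 0.32 (0.228). SPON2, a secreted matrix protein of the spondin family, was at 26.1, 28.4 and 46.7 CPM in tumours and 1.15, 9.99 and 20.8 CPM in liver metastases of subclone 2. In subclone 13 SPON2 was at 36.1, 40.2 and 97.0 CPM in tumours and 73.0, 80.8 and 129 CPM in liver metastases. The organs did not overlap in subclone 2, and in every mouse SPON2 was lower in liver in subclone 2 and higher in liver in subclone 13. Its difference was 2.77 ± 0.54 (edgeR adjusted p = 0.228), widest in mouse 1 (5.01, against 2.46 and 1.56), and edgeR called it without mouse 1 (2.04, adjusted p = 0.0363). ADAMTS7, a secreted metalloprotease, fell by 2.28 in subclone 2 (edgeR adjusted p = 0.00727) and differed by 2.45 ± 0.59 (0.512).

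KRT81, a type II hair keratin and the 1 keratin among the ranked genes, was at 119.5, 213 and 349 CPM in tumours and 13.9, 65.6 and 59.7 CPM in liver metastases of subclone 2. In subclone 13 KRT81 stayed between 139 and 186 CPM in tumours and between 147 and 210.5 CPM in liver metastases, so those organs overlapped while those of subclone 2 did not. It fell by 2.30 in subclone 2 (edgeR adjusted p = 0.00571), and the difference was 2.45 ± 0.58 (0.496). With each subclone and mouse as a block in place of mouse, edgeR called KRT81 as well as ACTG2 (2.51, adjusted p = 0.00526). Its neighbours on chromosome 12 had smaller differences of the same sign: 1.70 ± 0.52 for KRT86 and 0.94 ± 0.30 for KRT7 (edgeR adjusted p = 0.860 and 0.900). KRT86 overlaps both KRT81, which lies on the opposite strand, and KRT7, and the library kit did not keep strand, so reads of the 3 genes may be shared. The simple epithelial keratins KRT8 and KRT18 differed by 0.77 ± 0.29 and 0.71 ± 0.26. In the list of epithelial and mesenchymal genes, 11 of 21 tested members had a fitted difference above 0 and 10 below, and 0 were called. These 5 keratins were the members of unadjusted p under 0.05, all higher, a class that held 1.72% of all genes tested. The list's median was 0.29 beside −0.03 over all genes, and from −0.02 to 0.40 over 25 other settings.

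LY6E, an interferon-inducible surface protein anchored by lipid, was at 114, 200.5 and 306 CPM in tumours and 6.22, 61.6 and 54.6 CPM in liver metastases of subclone 2, and between 112 and 209 CPM in all 6 samples of subclone 13. It fell by 2.42 in subclone 2 (edgeR adjusted p = 0.00600), and the difference was 2.58 ± 0.61 (0.496). SDK1, an adhesion molecule of the immunoglobulin family, and SLC43A2, an amino acid transporter, fell in subclone 2 by 1.73 and 1.60 (edgeR adjusted p = 0.00799 and 0.00933). Their differences were 2.02 ± 0.46 and 1.83 ± 0.43. TRPV4, a calcium-permeable channel opened by mechanical and osmotic stimuli, instead rose in subclone 13, by 1.70 (edgeR adjusted p = 0.0253). It went from 1.53, 1.90 and 3.78 CPM in tumours to 5.69, 7.02 and 8.93 CPM in liver metastases there, and differed by 2.35 ± 0.54 (edgeR adjusted p = 0.496).

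**Figure D3:**
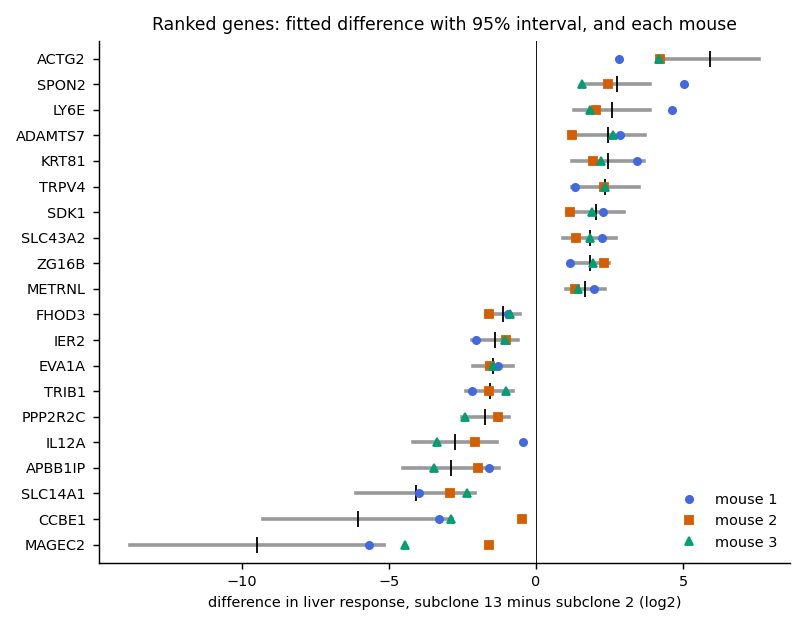
The 20 ranked genes: the fitted difference in liver response (black mark, log2) with its 95% interval (grey bar), and the value of each mouse (points). Mouse values are from log2 of CPM plus 0.5 and are nearer 0 than the fitted value for low genes such as ACTG2 (5.90 fitted, 2.83 to 4.23 by mouse) and MAGEC2 (−9.47 fitted, −5.67 to −1.58 by mouse).

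Among the genes ranked lower in subclone 13, EVA1A, a membrane protein tied to autophagy, was the steadiest between mice. It was at 38.5, 30.1 and 29.6 CPM in tumours and 16.7, 13.9 and 14.1 CPM in liver metastases of subclone 13, against 12.5 to 21.5 CPM in tumours and 17.6 to 24.0 CPM in liver metastases of subclone 2. The organs did not overlap in subclone 13 and did in subclone 2. EVA1A fell by 1.13 in subclone 13 (edgeR adjusted p = 0.0129), and the difference was −1.47 ± 0.33 (0.493), with −1.28, −1.56 and −1.45 by mouse. FHOD3, a formin that assembles actin filaments, was at 40.4, 44.3 and 51.6 CPM in tumours and 14.4, 16.1 and 22.3 CPM in liver metastases of subclone 13. In subclone 2 FHOD3 was at 40.4 to 73.8 CPM in tumours and 42.7 to 58.9 CPM in liver metastases. FHOD3 fell by 1.38 in subclone 13 (edgeR adjusted p = 0.000753), its change in subclone 2 was −0.25, and the difference was −1.13 ± 0.28 (0.536).

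TRIB1, a pseudokinase that recruits a ubiquitin ligase, was at 159, 95.4 and 79.4 CPM in tumours and 55.4, 63.1 and 38.4 CPM in liver metastases of subclone 13, with no overlap. In subclone 2 it was at 57.2 to 114 CPM in tumours and 112 to 149 CPM in liver metastases. It fell by 1.07 in subclone 13 (edgeR adjusted p = 0.0469), and the difference was −1.57 ± 0.38 (0.512). PPP2R2C, a regulatory subunit of the phosphatase PP2A, rose in subclone 2: it was at 29.7, 17.1 and 23.9 CPM in tumours and 77.0, 29.0 and 65.0 CPM in liver metastases there, a change of 1.22 (edgeR adjusted p = 0.0257). PPP2R2C was at 66.4, 59.9 and 69.7 CPM in tumours and 69.9, 41.0 and 35.4 CPM in liver metastases of subclone 13, and the difference was −1.72 ± 0.39 (edgeR adjusted p = 0.493). IER2, an immediate early gene, also rose in subclone 2, by 1.28 (edgeR adjusted p = 0.0159), and differed by −1.40 ± 0.37 (0.695).

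The other 5 genes ranked lower were low in some groups or uneven between mice. MAGEC2, an X-linked cancer-testis antigen, was at 5.57, 1.15 and 3.71 CPM in tumours and 23.7, 3.98 and 67.9 CPM in liver metastases of subclone 2. In subclone 13 MAGEC2 was at 5.89, 0.0512 and 0.358 CPM in tumours and 0, 0 and 0.131 CPM in liver metastases. Its fitted difference of −9.47 ± 2.06 (edgeR adjusted p = 0.484) is set by those near-empty liver samples. CCBE1, a secreted protein of lymphatic growth, was at 0.0508, 0 and 0.0657 CPM in liver metastases of subclone 13 and fell by 5.31 there (edgeR adjusted p = 0.0390). SLC14A1, a urea transporter, was at 7.80, 7.33 and 6.15 CPM in tumours and 15.2, 57.8 and 34.7 CPM in liver metastases of subclone 2, and at or under 5.42 CPM in all 6 samples of subclone 13. Its difference was −4.08 ± 0.96 (edgeR adjusted p = 0.496). IL12A, a subunit of interleukin 12, fell by 3.67 in subclone 13, from 2.29, 11.0 and 8.44 CPM to 0.440, 0.665 and 0.394 CPM (edgeR adjusted p = 0.000554). APBB1IP, an adaptor between Rap1 and integrins, fell by 2.44 in subclone 13 (edgeR adjusted p = 0.0330) and differed by −2.89 ± 0.79 (0.767).

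Gene lists were read by the direction of their members, and edgeR called 0 list members for the difference, since ACTG2 is in none of the lists. DESeq2 called 2 members, IL12A and IFI27, and edgeR without a filter on low counts called 35, among them 6 of MHC class II, 5 immediate early, 3 heat shock and 2 NF-kB genes. That unfiltered fit took the prior degrees of freedom of its spread estimate from 9.27 to infinite. Over all genes tested, 9358 of 17418 had a fitted difference below 0, and 243 fell in subclone 13 and 206 in subclone 2, which is the background for the counts below. NF-kB is the transcription factor family that answers TNF and other inflammatory signals and drives its own inhibitors and many cytokines. Of 30 tested members of its response list, 23 had a fitted difference below 0, and 5 had an unadjusted p under 0.05, all lower in subclone 13: NFKB1, NFKBIZ, TRAF1, IRAK2 and CD83. The list's median was −0.38 beside −0.03 over all genes, from a median response of −1.10 in subclone 13 and −0.71 in subclone 2, and it was −0.42, −0.41 and −0.16 by mouse. Over 25 other settings the median ran from −0.52 to −0.15. Within subclones, 9 members fell in subclone 13 and 6 in subclone 2.

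NFKB1, which encodes the p105 and p50 proteins, shows the pattern. It was at 117, 116 and 140.1 CPM in tumours and 58.4, 67.0 and 55.4 CPM in liver metastases of subclone 2, and at 151, 181 and 167 CPM and 49.6, 45.2 and 49.5 CPM in those of subclone 13. The tumours of subclone 13 were above those of subclone 2, and its liver metastases were below those of subclone 2, without overlap in either organ. NFKB1 fell in both subclones, by 1.79 and 1.04 (edgeR adjusted p = 2.67e-05 in subclone 13 and 0.00252 in subclone 2), and the difference was −0.76 ± 0.24 (0.900). Its promoter is printed because NF-kB regulates this gene itself: RefSeq, GRCh38.p14, chr4:102501109-102501358, plus strand, with a match to the kappa B motif in capitals, 49 bases before the start.
NFKB1: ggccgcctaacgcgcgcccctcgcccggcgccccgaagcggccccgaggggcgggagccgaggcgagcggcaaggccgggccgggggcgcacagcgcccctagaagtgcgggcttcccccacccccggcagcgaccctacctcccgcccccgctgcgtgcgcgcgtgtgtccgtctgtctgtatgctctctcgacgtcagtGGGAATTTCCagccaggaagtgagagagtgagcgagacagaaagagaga
The motif searched was GGGA, any 4 bases and CC, on both strands. Of 11784 tested genes with a promoter, 3955 (33.6%) held it in the 250 bases before any listed start. So did 17 of 27 NF-kB list members with a promoter (63.0%). A gene with several starts had more windows to match, and the number of starts was not evened out between these sets. Another listed start of NFKB1, with the window chr4:102501684-102501933, also held a match, 193 bases before that start. IRAK2, a kinase of interleukin 1 signalling, differed by −1.03 ± 0.33, and NFKBIZ, a nuclear inhibitor family member, by −1.18 ± 0.42 (edgeR adjusted p = 0.900 and 0.997).

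Of 22 tested cytokine, chemokine and colony stimulating factor genes, 16 had a fitted difference below 0, with a median of −0.42 that ran from −0.83 to −0.08 over 25 other settings. Of these genes, 5 fell in subclone 13 and 2 in subclone 2. IL11, a cytokine of the interleukin 6 family, went the other way. It was at 55.4, 40.6 and 76.8 CPM in tumours and 6.93, 2.11 and 7.60 CPM in liver metastases of subclone 2, a fall by 3.42 (edgeR adjusted p = 0.000528). In subclone 13 IL11 was at 45.5, 109 and 108 CPM in tumours and 11.7, 36.2 and 73.4 CPM in liver metastases, and the difference was 2.15 ± 0.62 (edgeR adjusted p = 0.769). CXCL10, an interferon-inducible chemokine, was at 0, 0.605 and 0 CPM in liver metastases of subclone 13 and at 0, 2.02 and 1.32 CPM in those of subclone 2.

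Interferon-stimulated genes, which answer type I and II interferons, split. Of 36 tested members 24 had a fitted difference above 0, 3 had an unadjusted p under 0.05 on each side, and the median was 0.12. Falls were common in both subclones: 11 members fell in subclone 13 and 14 in subclone 2. IFI27 was at 196, 299.8 and 357 CPM in tumours and 73.8, 73.9 and 140.1 CPM in liver metastases of subclone 2, and at 214, 242 and 339 and then 210.3, 236 and 168 CPM in subclone 13. It fell by 1.58 in subclone 2 (edgeR adjusted p = 0.000791), and the difference was 1.28 ± 0.32 (0.536). MX2, an antiviral GTPase, fell in both, by 3.15 in subclone 2 and 1.74 in subclone 13, and differed by 1.40 ± 0.56, while IFI6 differed by 1.18 ± 0.51. IFIT1, IFIT2 and IFIT3, which bind foreign RNA or partner in doing so, fell in both subclones and differed by −1.01 ± 0.43, −0.97 ± 0.39 and −0.79 ± 0.35. These 3 were lower in mice 1 and 3 and higher in mouse 2, where IFIT1 differed by 0.42 against −1.21 and −2.26. The sign of the list's median changed in 5 of 25 other settings.

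MHC class II genes, which present peptides to CD4 T cells and are switched on by the coactivator CIITA, formed the list with the median farthest from 0. All 9 tested members had a fitted difference below 0, 6 of them with an unadjusted p under 0.05 (HLA-DRB1, HLA-DRA, HLA-DQB1, HLA-DMA, CD74 and CIITA), and the median was −1.59. It was below 0 in all 25 other settings, from −2.54 to −1.12, but the mice were unequal, with −0.56, −1.98 and −3.32. HLA-DRB1 was at 99.7, 194 and 209 CPM in tumours and 71.1, 42.6 and 26.3 CPM in liver metastases of subclone 13, against 1.47 to 4.79 and 1.82 to 11.0 CPM in subclone 2. Its difference was −2.44 ± 0.88 (edgeR adjusted p = 0.997), and because HLA genes have near-identical copies, reads may be shared between them. CD74, the invariant chain, was at 457, 645 and 802 CPM in tumours and 611, 278 and 241 CPM in liver metastases of subclone 13, so mouse 1 did not follow mice 2 and 3. HLA-DMA, which loads peptides, differed by −1.46 ± 0.47 (edgeR adjusted p = 0.900) with −0.99, −1.08 and −2.05 by mouse. CIITA fell in subclone 13 by 1.78 (edgeR adjusted p = 0.0246). The 15 class I genes had a median of −0.06 and 0 members with an unadjusted p under 0.05. Immune cell markers, which could also carry class II, are given above at a summed 3.85 to 23.1 CPM; their part in this result was not tested.

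Immediate early genes are induced within minutes by growth factor and stress signals, and ERK feedback genes report the activity of the MAP kinase pathway. Of 24 immediate early genes 21 had a fitted difference below 0, 7 of them with an unadjusted p under 0.05 (EGR1, EGR2, EGR3, FOSB, IER2, KLF4 and KLF6), and the median was −0.48, with −0.84, −0.62 and −0.11 by mouse and −0.80 to −0.30 over 25 other settings. In the liver, 6 members rose in subclone 2, and in subclone 13 2 rose and 1 fell. EGR1, a zinc finger factor induced through ERK, was at 82.4, 57.8 and 264 CPM in tumours and 830.5, 283 and 658 CPM in liver metastases of subclone 2, and at 395, 122 and 307 and then 517, 197 and 373 CPM in subclone 13. It rose by 2.25 in subclone 2 (edgeR adjusted p = 0.00319), its change in subclone 13 was 0.45, and the difference was −1.80 ± 0.52 (0.769). Tumours of subclone 13 were above those of subclone 2 in all 3 mice for EGR1. EGR2 differed by −1.98 ± 0.60 and EGR3 by −1.41 ± 0.49. Among 14 ERK feedback genes, DUSP6 (an ERK phosphatase) and SPRY4 differed by −1.07 ± 0.35 and −1.06 ± 0.40, and the median was −0.12 (−0.30 to 0.04 over 25 other settings). Immediate early genes and heat shock genes also respond to how tissue is dissociated and sorted; handling times are not given in the sources used here, and their part in this result was not tested.

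Of 17 heat shock and chaperone genes, 12 had a fitted difference below 0, and HSPA1A, HSPA1B and DNAJB1 had an unadjusted p under 0.05. HSPA1A was at 484, 225 and 145 CPM in tumours and 124, 71.9 and 53.2 CPM in liver metastases of subclone 13, a fall by 1.73 (edgeR adjusted p = 0.00334), and its difference was −1.25 ± 0.42 (0.904). HSPA1B, a near-identical copy, differed by −1.25 ± 0.43, and reads of the pair may be shared. DNAJB1, their partner, was at 1201 CPM in the subclone 13 tumour of mouse 1, above the 324 to 589 CPM of the other samples.

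Matrix genes showed 2 large falls within subclone 13. THBS2, a matricellular thrombospondin, was at 38.4, 43.9 and 23.1 CPM in tumours and 0.627, 0.423 and 0.328 CPM in liver metastases of subclone 13, a fall by 6.41 (edgeR adjusted p = 0.000255). In subclone 2 THBS2 was under 1 CPM in all 6 samples (0 to 0.929), so little room for a fall was left there. Its difference of −4.34 ± 1.25 (edgeR adjusted p = 0.769) turned to 0.61 without the subclone 2 liver sample of mouse 3 and to 0.92 without mouse 3, where all remaining subclone 2 liver samples were at 0. ADAMTS12, a matrix protease, was at 15.7, 20.8 and 18.7 CPM in tumours and 0.983, 2.00 and 3.15 CPM in liver metastases of subclone 13, and at 6.38, 6.56 and 8.02 and then 2.12, 1.42 and 7.93 CPM in subclone 2. It fell by 3.36 in subclone 13 (edgeR adjusted p = 0.000396) and differed by −2.21 ± 0.61 (0.769). The list of 39 tested collagens and matrix genes had a median of 0.06 (−0.15 to 0.28 over 25 other settings), with 10 members that fell in subclone 13 and 8 in subclone 2. Summed stromal markers, given above, were also lower in liver than in tumour samples; their part in these falls was not tested. EDNRA, an endothelin receptor, fell by 1.41 in subclone 13 (edgeR adjusted p = 0.0111), its change in subclone 2 was −0.06, and the difference was −1.34 ± 0.40 (0.800).

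**Figure D4:**
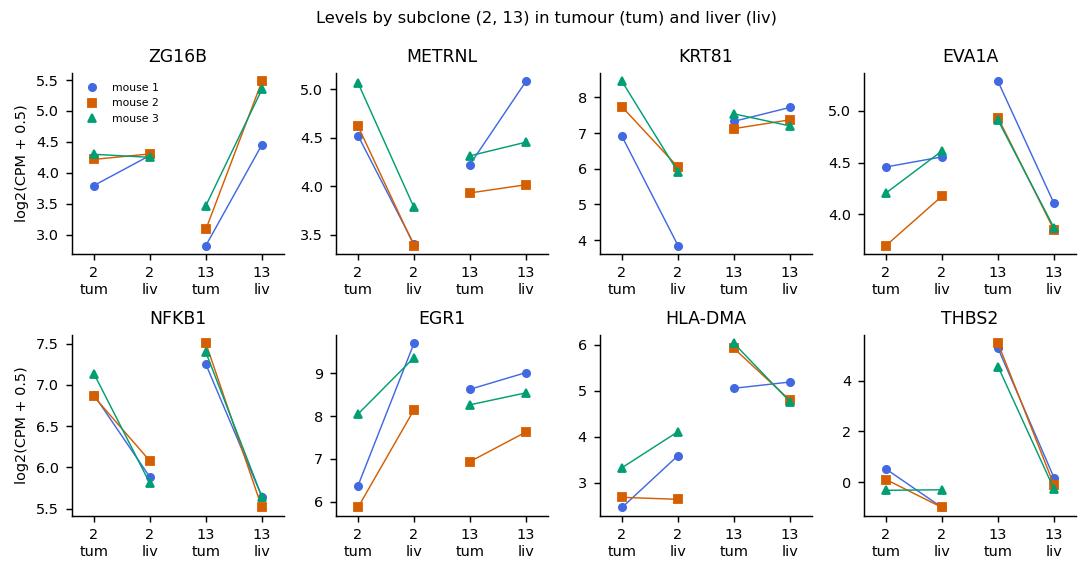
Levels of 8 genes (log2 of TMM-scaled CPM plus 0.5) in tumour and liver samples of subclones 2 and 13, each line a mouse. ZG16B rises in subclone 13 in all 3 mice, METRNL and KRT81 fall in subclone 2, EVA1A falls in subclone 13, NFKB1 falls in both, EGR1 rises in subclone 2, HLA-DMA is uneven between mice, and THBS2 is near 0 CPM everywhere except tumours of subclone 13 (23.1 to 43.9 CPM).

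Hypoxia genes answer low oxygen through HIF factors. Of 37 glycolysis and hypoxia genes 26 had a fitted difference above 0, with a median of 0.13 (−0.03 to 0.30 over 25 other settings) and 3 members of unadjusted p under 0.05. The medians by mouse were −0.25, 0.26 and 0.42, so mouse 1 went the other way. CA9, a carbonic anhydrase induced by hypoxia, was at 13.7, 8.35 and 17.2 CPM in tumours and 8.21, 0 and 1.28 CPM in liver metastases of subclone 2, and at 12.1, 11.1 and 26.5 and then 13.8, 17.7 and 38.8 CPM in subclone 13. Its difference was 2.98 ± 1.20 (edgeR adjusted p = 1). PFKFB4 and P4HA2, which act in glycolysis and collagen synthesis, fell in subclone 2 by 0.96 and 1.02 and differed by 0.68 ± 0.31 and 0.55 ± 0.24. Of 16 p53 targets 13 had a fitted difference below 0 (median −0.23, from −0.61 to −0.10 over 25 other settings). Their medians by mouse were −0.75, 0.05 and −0.17, so mouse 1 was farthest from 0 and mouse 2 was above it. GADD45A and BBC3, of growth arrest and apoptosis, fell in subclone 13 by 1.05 and 1.21 (edgeR adjusted p = 0.0246 and 0.0285). TNFRSF11B, a decoy receptor of the TNF family, was at 13.9, 19.0 and 16.1 CPM in tumours and 0, 2.53 and 2.61 CPM in liver metastases of subclone 2, and at 7.45, 1.02 and 3.86 and then 2.73, 14.3 and 7.09 CPM in subclone 13. Its difference was 3.77 ± 1.23 (edgeR adjusted p = 0.900), and edgeR called it without mouse 1 (4.82, adjusted p = 0.0363). PPP1R3C, which targets a phosphatase to glycogen, differed by 1.36 ± 0.39 (edgeR adjusted p = 0.769), with 1.24, 1.47 and 1.27 by mouse.

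Lists of mitosis (30 tested), DNA replication (28), cytosolic ribosomal proteins (37), nuclear oxidative phosphorylation (29), mitochondrially encoded genes (13), cholesterol synthesis (25) and glucocorticoid targets (12) had 0 members with an unadjusted p under 0.05. Their medians lay between −0.23 and −0.04. Of the cholesterol genes, 7 fell in the liver of subclone 13 and 6 in that of subclone 2. The mitosis list had a median response of 0.37 in subclone 13 and 0.51 in subclone 2.

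**Figure D5:**
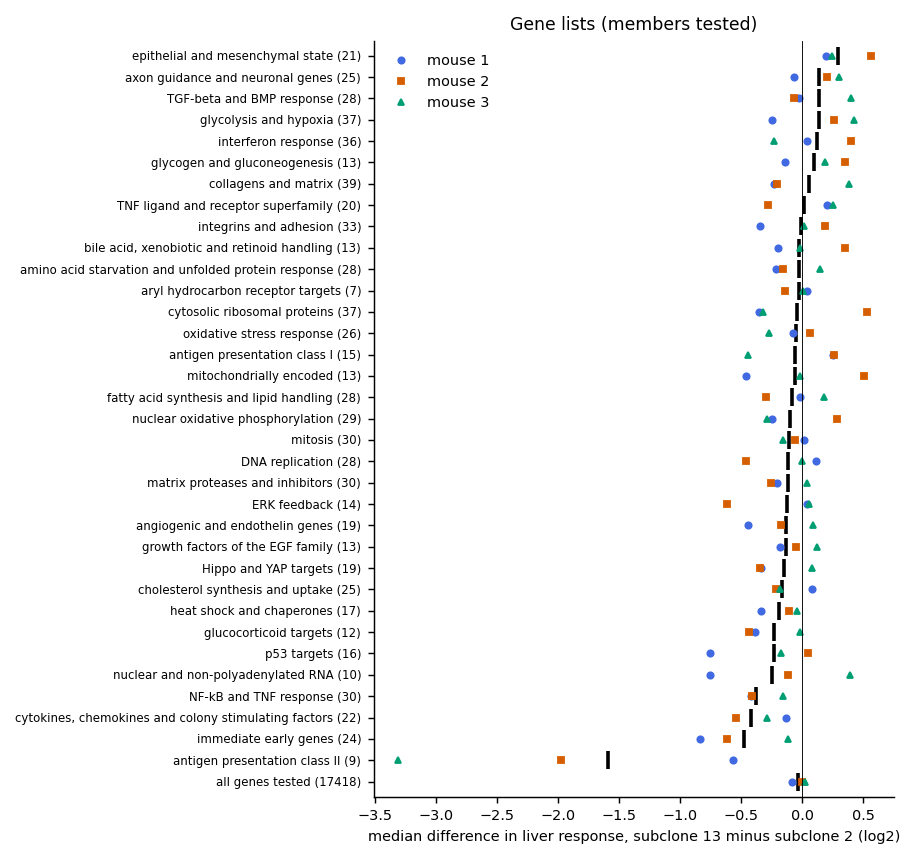
Median difference in liver response of each gene list (black bar, log2), with the medians by mouse (points) and the number of members tested in brackets. MHC class II lies lowest (−1.59, by mouse −3.32 to −0.56), followed by immediate early genes (−0.48), and all genes tested are at −0.03.

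Lung metastases of the same mice gave a second organ to set beside the liver. The difference between the subclones in the change from tumour to lung called 0 of 17418 genes (edgeR, 323 at an unadjusted p under 0.05, smallest adjusted p = 0.813), and the direct comparison of the liver and lung differences called 0 (783 at an unadjusted p under 0.05, smallest adjusted p = 0.451). ACTG2 differed by 2.06 in lung and 5.90 in liver. For ZG16B the values were 0.68 in lung and 1.83 in liver, and its level was 24.5, 53.2 and 44.1 CPM in lung metastases of subclone 2 and 22.3, 33.0 and 40.7 CPM in those of subclone 13. KRT81 differed by −0.55 in lung and 2.45 in liver, and LY6E by −0.02 and 2.58. Others were near in size in both organs: NFKB1 differed by −0.75 in lung and −0.76 in liver, ADAMTS12 by −2.24 and −2.21, TNFRSF11B by 3.35 and 3.77, and the MHC class II median was −1.12 and −1.59. Of the 10 genes ranked higher, 7 had a fitted lung difference above 0, and all 10 ranked lower had one below 0. Of the 53 list members named by the rule, 41 had the same fitted sign in lung, but the organs share their tumour samples, which fixes part of any likeness. The share of all genes tested with the same sign in both organs was not computed, so these counts are not read as support from lung.

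Agreement between mice was limited. Across the 11454 genes of at least 5 CPM, the difference by mouse had a Pearson's r of −0.022 between mice 1 and 2, 0.313 between mice 1 and 3 and 0.15 between mice 2 and 3, as descriptions. The same sign in all 3 mice was found for 2983 genes (26.0%), of which 1353 were higher and 1630 lower in subclone 13. That share is close to what 3 independent, evenly split signs would give. The same sign in all 3 mice, a rule for the ranked genes, is therefore little evidence by itself. A difference above 1 log2 unit in either direction was found for 10.6% of genes in mouse 1, 9.46% in mouse 2 and 6.93% in mouse 3. Since 4 samples give each value, these shares hold the error of all 4.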

How the data were processed

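Reads were counted per gene by the authors, and the deposited table held whole-number counts, 1 column per library, for 38526 genes. The submitters' processing notes name bcl2fastq 2.15.0.4, cutadapt, STAR, featureCounts and GRCh38 without roles, and how reads of the host mouse were handled is not given in the sources used here. Per the labels' protocols, RNA came from a column kit with DNase and libraries from TruSeq RNA v2, which does not keep strand.

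The 24 libraries of mice 1 to 3 gave 18 samples, because the 3 libraries per organ of subclone 13 of mouse 1 were summed. Genes were filtered with filterByExpr (17418 kept), scaled by TMM and fitted with edgeR 4.0.16 (R 4.3.3) as 6 groups of 3 mice plus mouse. The quasi-likelihood F test gave the p-values, adjusted by Benjamini-Hochberg over all genes tested with a threshold of 0.05, and standard errors were taken from the log2 value and F. The spread was 0.33 as a biological coefficient of variation, with 10 residual degrees of freedom. Samples of a number come from the same mouse per the labels. Their deviations from group means correlated at a median of 0.385 over 18 pairs (lowest 0.191). The median over 48 pairs from different mice was −0.293, which centring on means of 3 samples pulls below 0. Since run mostly followed mouse, these values do not show a shared animal.

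Named genes had a symbol, a mean of at least 5 CPM in a group and the same sign in all 3 mice, up to 15 called per direction, filled up to 10 by smallest unadjusted p. Up to 3 members per gene list were added the same way. The comparison, the lists and these rules were chosen with earlier results of these data known. The 16 contractile genes, other unranked genes and the CArG search were chosen after values were seen. Scripts were tested on simulated data. Coordinates are GENCODE v29, and promoters are RefSeq. Alternatives were DESeq2 1.42.0, other filters, RLE factors, other blocks, fewer samples and single libraries.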

Additional observations from a re-analysis of the deposited data

Results flagged for a closer look

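ACTG2 stood out because its liver response differed between the subclones by the test of the difference itself: 5.90 on the log2 scale, with a fall in subclone 2 and a higher level in all 3 liver samples of subclone 13. The contrast has 18 counts in the 3 liver samples of subclone 2 and 2108 in those of subclone 13, against 231 and 1055 in the tumours.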

How the results depend on the processing

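In 25 other settings ACTG2 kept its direction (4.83 to 7.34) and was called in 20. With no replicate block it was 5.73 and 0 genes were called (297 at an unadjusted p under 0.05), and with the liver and tumour samples alone it was 5.88 with 0 called (507). The replicate block by subclone and mouse called 2 genes. DESeq2 called 26, and edgeR with no filter on low counts called 121, with 23 genes in both; without the filter the biological coefficient of variation was 0.406 in place of 0.33, and the prior degrees of freedom were infinite in place of 9.27. Leaving out a sample or a mouse called 0 to 7 genes, with 7 without mouse 1. The 20 ranked genes kept their direction in all 500 values. They were picked for the same direction in all 3 mice, so a reversal was unlikely from the start. THBS2 ran from −5.07 to 0.92 with samples left out, above 0 at 0.61 without the subclone 2 liver sample of mouse 3; the cause was that the remaining samples of that group were at 0. Calls between liver and tumour ranged from 99 to 441 in subclone 13 and 105 to 418 in subclone 2 with samples left out, and were 67 and 50 with no replicate block, 169 and 165 with the liver and tumour samples alone, 633 and 687 with DESeq2 and 664 and 618 with no filter, against 318 and 292. Low counts limit ACTG2 in the liver of subclone 2, where the 3 samples had 3, 0 and 15 counts at depths of 17.5, 72.0 and 51.9 M.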
